A study of Sus scrofa with 15 samples.

Results

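The 8 genes described here are the leukocyte integrin chains ITGB2, ITGB7, ITGAL, ITGAM, ITGAX and ITGAE and the integrin activators TLN1 and FERMT3. They were listed as gene symbols, with earlier results of these data known, and all 8 were found among the 29886 genes of the count table and among the 10939 genes that had enough reads to be tested. RNA was measured in 3 natural killer (NK) cell populations of 5 pigs, 6 months old: CD8αhigh NK cells from blood (conventional NK or cNK cells), CD8αhigh NK cells from liver, and CD8αdim NK cells from liver, which are labelled as liver-resident NK (lrNK) cells. All 3 populations came from the same 5 animals, and the liver cells were those released when PBS was flushed through the portal vein. Each population was enriched on magnetic beads by removing CD3+ and CD172a+ cells. The cells were then sorted with antibodies to CD3, CD172a and CD8α, so the gates, and not the RNA, define the groups. The comparisons ask in which integrin genes the liver-resident cells differ from circulating NK cells and from the CD8αhigh NK cells of the same organ.

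Integrins are adhesion receptors made of an α and a β chain, and each chain reaches the cell surface only with a partner. The β2 chain (ITGB2, CD18) pairs with ITGAL (CD11a) to form LFA-1, with ITGAM (CD11b) to form Mac-1 and with ITGAX (CD11c), and these receptors bind ICAM proteins on endothelium and target cells. The β7 chain (ITGB7) pairs with ITGAE (CD103), which binds E-cadherin on epithelium, or with ITGA4, which binds the gut addressin MADCAM1 and VCAM1. Talin (TLN1) and kindlin-3 (FERMT3) bind the tails of β chains from inside the cell and switch the receptors to their active form, and in NK cells LFA-1 is used for arrest on vessels and for the contact with a target cell.

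The libraries were read from the 3′ end of polyadenylated RNA, so a count does not grow with transcript length, and levels are given as CPM, the counts scaled to library totals adjusted by the TMM method. Library totals ran from 2003499 to 5680221 counts (median 3686363). The lrNK library of pig 3 stood apart: its root mean square distance from the median of its population over the tested genes was 1.33 on the log2 scale, and that of the other 14 libraries was 0.54 to 0.83. Calls of the 8 genes and of the pathway genes named by rule that change without it are given with and without it. The summed level of 14 NK cell marker genes was 6845 to 9239 CPM in blood, 7349 to 8582 CPM in liver CD8αhigh and 4984 to 12939 CPM in lrNK libraries, and each of the 14 was detected in every population. The lowest sum was that of the lrNK library of pig 3, where IL2RB stood at 381 CPM against 2503 to 5900 CPM in the other lrNK libraries. Of the 14 markers, 6 were higher and 4 lower in lrNK than in blood cells. Of all tested genes 8.62% were higher and 9.6% lower in this comparison (edgeR adjusted p under 0.05). CD8A, among the 4 lower, encodes the protein on which the populations were sorted. Of 12 myeloid marker genes, 8 were at 0 in every lrNK library, among them CSF1R, S100A8 and S100A9, and the sum over all 12 did not exceed 25.6 CPM in any library. LYZ, the 1 myeloid marker with enough counts to be tested, was higher in lrNK than in liver CD8αhigh cells (mean 8.56 against 0.37 CPM, edgeR adjusted p = 0.0272) and did not pass against blood (adjusted p = 0.305). B cell markers moved with the lrNK population: the sum over 8 genes was 357 to 952 CPM in lrNK, 63.1 to 170 CPM in blood and 37.6 to 80.1 CPM in liver CD8αhigh libraries, 6 of the 7 tested were higher in lrNK than in blood cells, and CD79A was at 0 throughout. Of 6 genes of T cells, the sum was 110 to 593 CPM in lrNK, 637 to 1203 CPM in blood and 714 to 1076 CPM in liver CD8αhigh libraries, and CD4 and CD5 were at 0. Nearly all of that sum was CD3G (mean 865 CPM in blood against 289 CPM among lrNK cells), the 1 of 3 tested that was lower in lrNK than in blood cells, while CD3D had means of 3.78 and 8.43 CPM and did not pass. Of 8 platelet genes, the sum was 81.4 to 178 CPM in lrNK and 82.4 to 114 CPM in blood libraries. Most of it was GP9, which did not pass against blood (edgeR adjusted p = 0.247). ITGA2B was not tested, with 5 to 27 counts in blood and 0 to 4 in lrNK libraries. Of 3 erythroid genes, the sum was 0 to 24.1 CPM in lrNK and 0 to 315 CPM in blood libraries, the highest in pig 4. The part that such cells take in the levels below was not tested. In bulk RNA, fewer cells with a transcript cannot be told apart from less of it per cell.

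Of the 8 genes, 4 were lower in lrNK cells than in blood cNK cells and 0 were higher. These were both β chains and the α chains of LFA-1 and Mac-1. ITGB7 fell furthest, 4.77-fold, while ITGB2, ITGAL and ITGAM fell 1.73-fold to 2.05-fold. ITGAX, ITGAE and both activators did not pass the test. The share of all tested genes that passed (an adjusted p under 0.05 by the quasi-likelihood method of edgeR, Benjamini-Hochberg adjusted over the genes tested) was 18.2% in either direction, 8.62% higher and 9.6% lower. The median log2 fold change was -0.43 over the 8 genes and 0.01 over all tested genes.

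ITGB2 (chromosome 13, 207514281 to 207544108, assembly Sscrofa11.1) had the highest level of the 8 genes in each population by the mean. In blood it reached 1215, 1075, 852, 1274 and 857 CPM in pigs 1 to 5, in liver CD8αhigh cells 920, 882, 870, 866 and 853 CPM, and in lrNK cells 589, 388, 825, 535 and 562 CPM. The lrNK libraries all lay below the other 10, with that of pig 3 close under them. The means were 1055 ± 196 CPM (SD, n = 5) in blood, 878 ± 25.7 CPM in liver CD8αhigh and 580 ± 158 CPM in lrNK cells. ITGB2 was 1.82-fold lower in lrNK than in blood cells (log2 fold change -0.86, SE 0.17, edgeR adjusted p = 0.00108) and lower in 5 of 5 pigs.

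ITGB7 (chromosome 5, 18419432 to 18434376) showed the widest gap. It stood at 369, 306, 353, 373 and 266 CPM in the blood libraries of pigs 1 to 5, at 236, 236, 334, 240 and 242 CPM in liver CD8αhigh and at 34.5, 97.0, 147, 45.8 and 29.0 CPM in lrNK libraries. No lrNK library reached the lowest of the CD8αhigh libraries of either organ, and the lrNK libraries of pigs 2 and 3 lay above those of the other 3 pigs. The mean fell from 333 ± 46.1 CPM in blood to 70.7 ± 50.5 CPM in lrNK cells (SD, n = 5), a 4.77-fold difference (log2 fold change -2.25, SE 0.33, edgeR adjusted p = 3.50e-05) seen in 5 of 5 pigs. The 95% interval of this log2 fold change, -2.93 to -1.57, did not overlap that of ITGB2, -1.22 to -0.50.

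**Figure D1:**
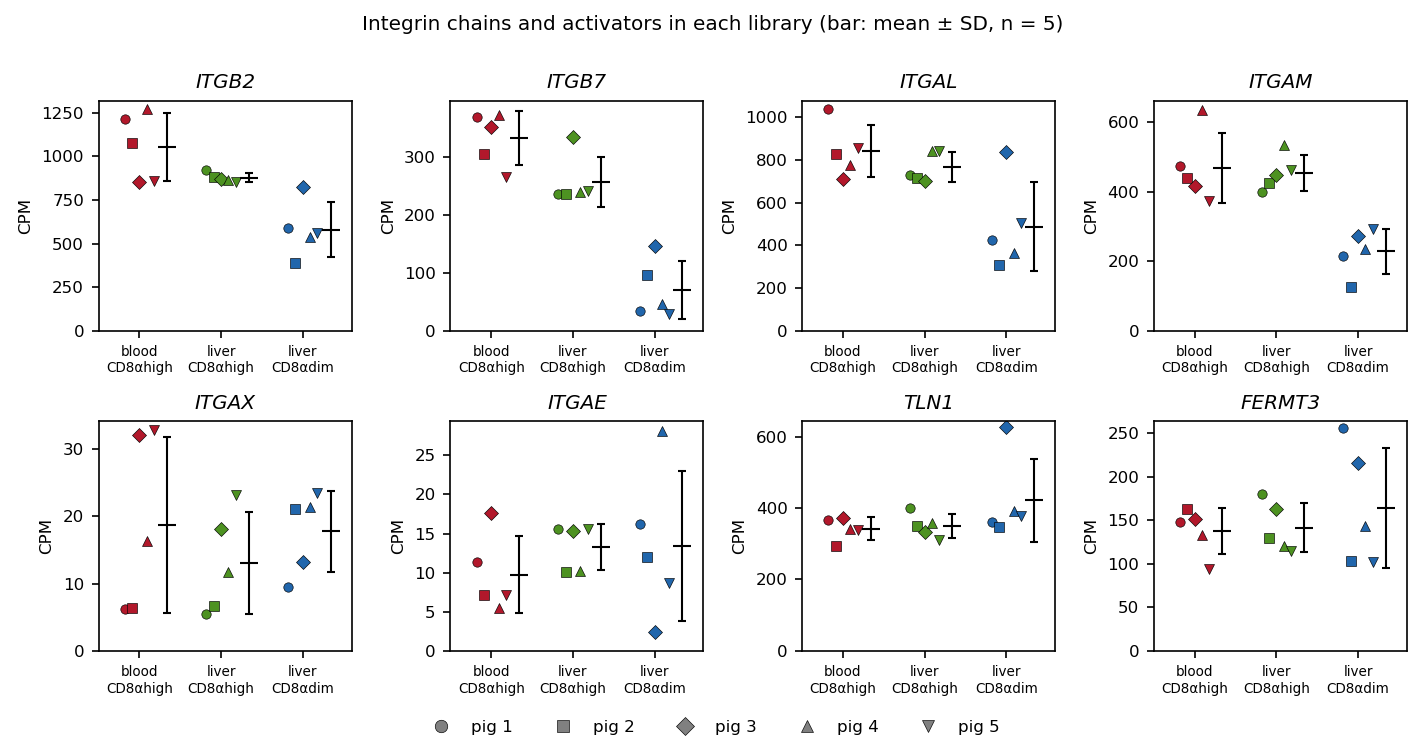
Level of each gene in CPM (linear axes from 0) in blood CD8αhigh, liver CD8αhigh and liver CD8αdim (lrNK) cells. Each symbol is 1 library, its shape gives the pig, and the bar gives the mean ± SD of 5 pigs; ITGB2, ITGB7 and ITGAM of lrNK cells lie wholly below the other populations, and ITGAL does so in 4 of 5 pigs.

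Among the α chains, ITGAL (chromosome 3, 17817785 to 17858057) was measured at 1038, 826, 712, 776 and 857 CPM in the blood libraries of pigs 1 to 5. In liver CD8αhigh cells the levels were 730, 715, 701, 844 and 841 CPM, and in lrNK cells 423, 309, 836, 364 and 505 CPM. In 4 pigs the lrNK level lay below every CD8αhigh library, while that of pig 3 lay within their range and 1.17 times above the same animal's blood level. From 842 ± 123 CPM in blood the mean fell to 488 ± 208 CPM in lrNK cells (SD, n = 5), 1.73-fold lower (log2 fold change -0.79, SE 0.21, edgeR adjusted p = 0.00925). Without the lrNK library of pig 3 the log2 fold change was -1.05 (adjusted p = 2.99e-05), and the call was lost without pig 1 (-0.65, adjusted p = 0.0803) or without pig 2 (-0.67, adjusted p = 0.0579) in the same test.

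ITGAM (chromosome 3, 17216719 to 17272134) had 474, 439, 416, 635 and 374 CPM in the blood libraries of pigs 1 to 5, 398, 425, 448, 535 and 461 CPM in liver CD8αhigh libraries and 214, 127, 273, 233 and 293 CPM in lrNK libraries. The lrNK levels lay below all others, and here pig 3 was not the highest of them. Blood cells had a mean of 468 ± 101 CPM and lrNK cells one of 228 ± 64.7 CPM (SD, n = 5). ITGAM was thus 2.05-fold lower in lrNK cells (log2 fold change -1.03, SE 0.19, edgeR adjusted p = 5.80e-04), in 5 of 5 pigs. A long non-coding RNA gene, LOC110259903, shares 39539 bases with ITGAM in the annotation and was counted separately, at 130 to 263 counts in blood, 72 to 203 in liver CD8αhigh and 18 to 50 in lrNK libraries. It was lower in lrNK than in blood cells as well (log2 fold change -2.49, edgeR adjusted p = 1.98e-06), and how reads in the shared stretch were divided is not given in the sources used here.

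The other pair of α chains was scarce. ITGAX (chromosome 3, 17178725 to 17201388) had 6.23, 6.30, 32.0, 16.3 and 32.8 CPM in the blood libraries of pigs 1 to 5, 5.53, 6.59, 18.1, 11.7 and 23.2 CPM in liver CD8αhigh libraries and 9.55, 21.1, 13.2, 21.3 and 23.5 CPM in lrNK libraries. The spread between pigs within a population was wider than any gap between populations. The log2 fold change of lrNK over blood cells was -0.07 with a 95% interval of -1.10 to 0.96 (edgeR adjusted p = 0.952), so these counts do not bound its change closely. In the annotation used here the pig ITGAX locus is a long non-coding RNA gene with 5 transcripts and 0 proteins, and its counts are therefore given as reads on that locus.

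ITGAE (chromosome 12, 49810050 to 49878142) encodes the chain that makes CD103, often used as a mark of tissue residency in lymphocytes. Its levels were 11.4, 7.13, 17.6, 5.42 and 7.16 CPM in the blood libraries of pigs 1 to 5, 15.5, 10.0, 15.3, 10.2 and 15.5 CPM in liver CD8αhigh libraries and 16.2, 12, 2.44, 28.1 and 8.62 CPM in lrNK libraries. Pig 4 gave both the lowest blood level and the highest lrNK level, and pig 3 the highest blood level and the lowest lrNK level. The log2 fold change of lrNK over blood cells was 0.47 (95% interval -0.54 to 1.48, edgeR adjusted p = 0.578), higher in 4 of 5 pigs. Without the lrNK library of pig 3 it was 0.74 (adjusted p = 0.230).

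**Figure D2:**
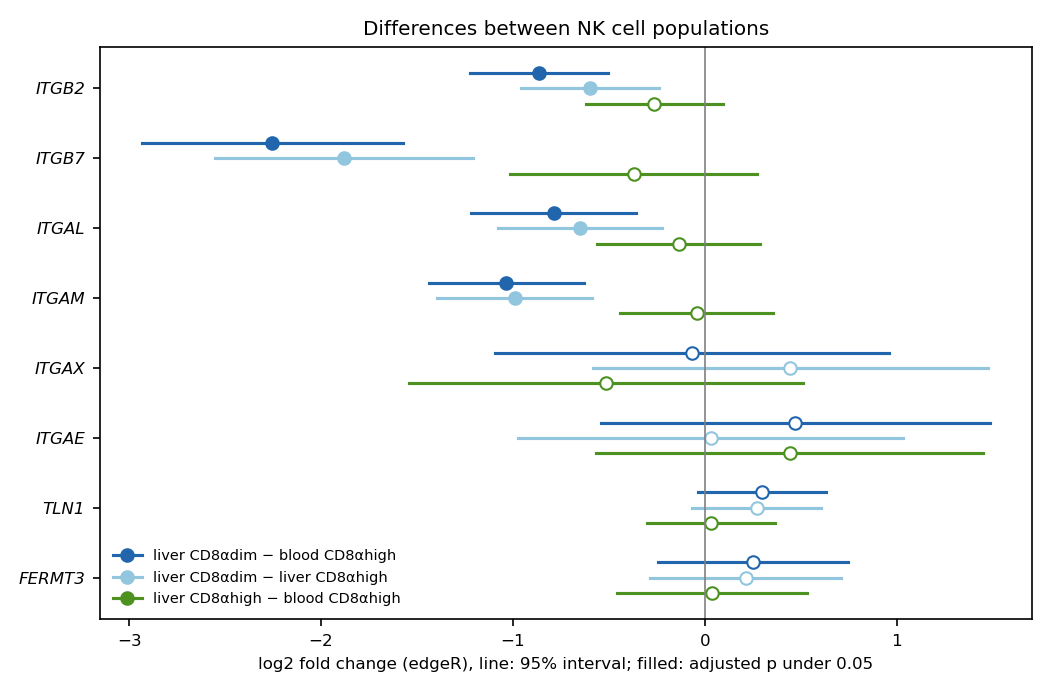
Log2 fold change of each gene in the 3 comparisons (x axis), with 95% intervals as lines and filled points where the edgeR adjusted p was under 0.05. ITGB2, ITGB7, ITGAL and ITGAM are filled and left of 0 in both comparisons of liver CD8αdim cells, and no point is filled in liver CD8αhigh against blood.

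Talin-1 (TLN1, chromosome 1, 236416041 to 236450978) was at 368, 293, 372, 341 and 337 CPM in the blood libraries of pigs 1 to 5, at 400, 349, 332, 357 and 309 CPM in liver CD8αhigh and at 362, 346, 626, 393 and 379 CPM in lrNK libraries. All libraries but the lrNK library of pig 3 lay between 293 and 400 CPM. The log2 fold change of lrNK over blood cells was 0.30 (95% interval -0.04 to 0.63, edgeR adjusted p = 0.229), and without that library it was 0.13 (adjusted p = 0.538).

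Kindlin-3 (FERMT3, chromosome 2, 7886781 to 7909892) was at 148, 163, 151, 133 and 94.2 CPM in the blood libraries of pigs 1 to 5, at 180, 129, 163, 120 and 115 CPM in liver CD8αhigh and at 256, 104, 216, 143 and 103 CPM in lrNK libraries. The populations overlapped, with pigs 1 and 3 highest among the lrNK cells. The log2 fold change of lrNK over blood cells was 0.25 (95% interval -0.25 to 0.75, edgeR adjusted p = 0.538). These values cannot be assigned to FERMT3 alone: TRPT1, a tRNA phosphotransferase gene that shares 809 bases with it in the annotation, had the same count in 4 of 15 libraries and differed by at most 10 counts in the others. Summed over the 15 libraries the table holds 7294 counts for FERMT3 and 7336 for TRPT1.

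**Figure D3:**
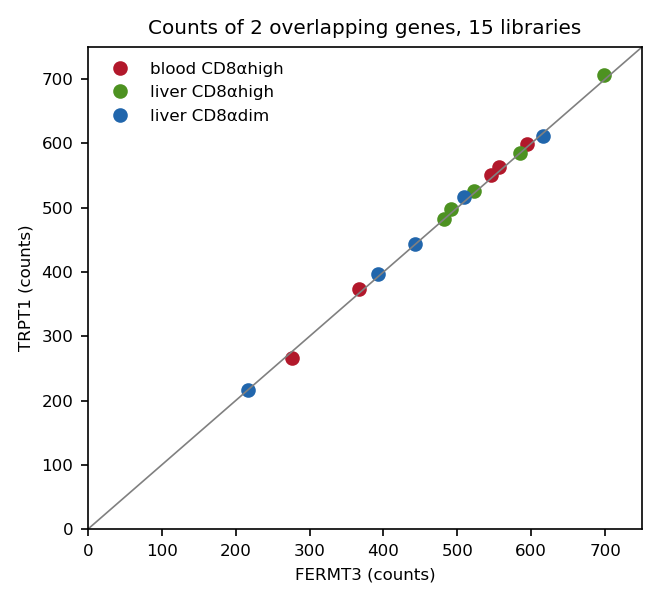
Deposited counts of FERMT3 (x axis) and of the overlapping gene TRPT1 (y axis) in 15 libraries, coloured by population, with the line of equal counts. All points lie on or next to the line, with TRPT1 at 96.4% to 101.6% of the FERMT3 count.

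Against liver CD8αhigh cells, the same organ's conventional population, ITGB2, ITGB7, ITGAL and ITGAM, 4 of the 8 genes, were lower in lrNK cells and 0 were higher. ITGB7 fell furthest, ITGAM next and the LFA-1 chains least. This comparison uses the same lrNK libraries as the one with blood, so it is not a separate sample of lrNK cells. Of all tested genes 14.6% passed in either direction, 6.96% higher and 7.68% lower, and the median log2 fold change was -0.28 over the 8 genes against 0.02 over all tested genes.

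ITGB7 was 3.68-fold lower than in liver CD8αhigh cells (258 ± 43.0 against 70.7 ± 50.5 CPM, SD, n = 5, log2 fold change -1.88, SE 0.32, edgeR adjusted p = 2.84e-04) and lower in 5 of 5 pigs. ITGAM was 1.99-fold lower (454 ± 51.6 against 228 ± 64.7 CPM, log2 fold change -0.99, SE 0.19, edgeR adjusted p = 0.00101), also in 5 of 5 pigs. Both calls held without any single pig or library.

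The calls of the LFA-1 chains were lost in more settings. ITGB2 was 1.51-fold lower in 5 of 5 pigs (log2 fold change -0.60, SE 0.17, edgeR adjusted p = 0.0211), with each pig's lrNK level at 0.44 to 0.95 times its liver CD8αhigh level, and its call was lost without pig 1, 2, 4 or 5 or without the lrNK library of pig 2 (log2 fold change -0.60 to -0.48, adjusted p = 0.0506 to 0.118). ITGAL was 1.57-fold lower (log2 fold change -0.65, SE 0.21, edgeR adjusted p = 0.0354) in 4 of 5 pigs, and its call was lost in 13 of 28 other settings (log2 fold change -0.68 to -0.53, adjusted p = 0.0516 to 0.176): without pig 1, 2, 4 or 5, without the lrNK library of any of these pigs, without the liver CD8αhigh library of pig 2, 4 or 5, and in 2 other fits. Leaving out the lrNK library of pig 3, whose ITGAL level was 1.19 times that of the same animal's liver CD8αhigh cells, changed the log2 fold change of ITGAL to -0.93 (adjusted p = 1.44e-04) and that of ITGB2 to -0.76 (adjusted p = 9.79e-04).

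ITGAX, ITGAE, TLN1 and FERMT3 did not pass against liver CD8αhigh cells either. The log2 fold changes were 0.45 for ITGAX (95% interval -0.59 to 1.48), 0.03 for ITGAE (-0.97 to 1.03), 0.27 for TLN1 (-0.07 to 0.60) and 0.21 for FERMT3 (-0.28 to 0.71). The intervals of the 2 scarce α chains reach a change of 2-fold in one direction or nearly so in both, and those of the activators do not.

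In both comparisons 3 of the 8 genes, ITGB2, ITGB7 and ITGAM, had no overlap between the 5 lrNK libraries and the 5 others. Among all tested genes, 7.33% lay wholly lower without overlap against blood and 6.67% against liver CD8αhigh cells.

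Between liver CD8αhigh and blood cells, which share a surface phenotype but not an organ, edgeR called 0 of the 8 genes. Their smallest unadjusted p was 0.138 (ITGB2) and the adjusted p was 0.9996 for each, and DESeq2 also called 0. Over all tested genes edgeR called 7 (0.064%), DESeq2 called 22, and 549 had an unadjusted edgeR p under 0.05. None of the 8 genes separated the populations without overlap, as did 2.01% of the tested genes in either direction.

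The order of the mean levels was blood, liver CD8αhigh and then lrNK for ITGB2, ITGB7, ITGAL and ITGAM, and for these genes the first pair of neighbours in that order did not pass the test. ITGB7 was lower in liver CD8αhigh than in blood cells in 5 of 5 pigs, at 0.64 to 0.95 times the blood level, with a log2 fold change of -0.37 and a 95% interval of -1.01 to 0.27. The liver CD8αhigh libraries spread less in ITGB2 than the blood libraries did, with an SD of 25.7 CPM against 196 CPM. TLN1 and FERMT3 had log2 fold changes of 0.03 (95% interval -0.30 to 0.36) and 0.04 (-0.46 to 0.53).

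Chain proportions give the same data within each library, where library size cancels. ITGB7 made up 23.3%, 22.2%, 29.3%, 22.6% and 23.7% of the ITGB2 and ITGB7 counts in the blood libraries of pigs 1 to 5, and 20.4%, 21.1%, 27.8%, 21.7% and 22.1% in liver CD8αhigh libraries. In lrNK libraries it made up 5.53%, 19.98%, 15.1%, 7.88% and 4.90%. All 5 lrNK libraries lay under the lowest CD8αhigh library, that of pig 2 by a small margin. The mean share was 24.2% ± 2.91 in blood, 22.6% ± 2.95 in liver CD8αhigh and 10.7% ± 6.60 in lrNK cells (SD, n = 5). The CD8αhigh libraries of pig 3 held the highest share in both organs.

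Among the α chains, ITGAL and ITGAM took most of the counts in every population. ITGAL took 62.9% ± 5.71 of the counts of the 4 α chains in blood, 61.5% ± 1.74 in liver CD8αhigh and 64.2% ± 6.72 in lrNK cells (SD, n = 5). ITGAM took 34.9% ± 5.80, 36.4% ± 1.78 and 31.0% ± 5.18 in the same order, so that the shares of ITGAL and ITGAM overlapped between the populations. ITGAX took 1.47% ± 1.12, 1.03% ± 0.57 and 2.65% ± 1.37. ITGAE took 0.75% ± 0.44, 1.08% ± 0.27 and 2.12% ± 1.58, with 4.34% in the lrNK library of pig 4 and 0.22% in that of pig 3.

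**Figure D4:**
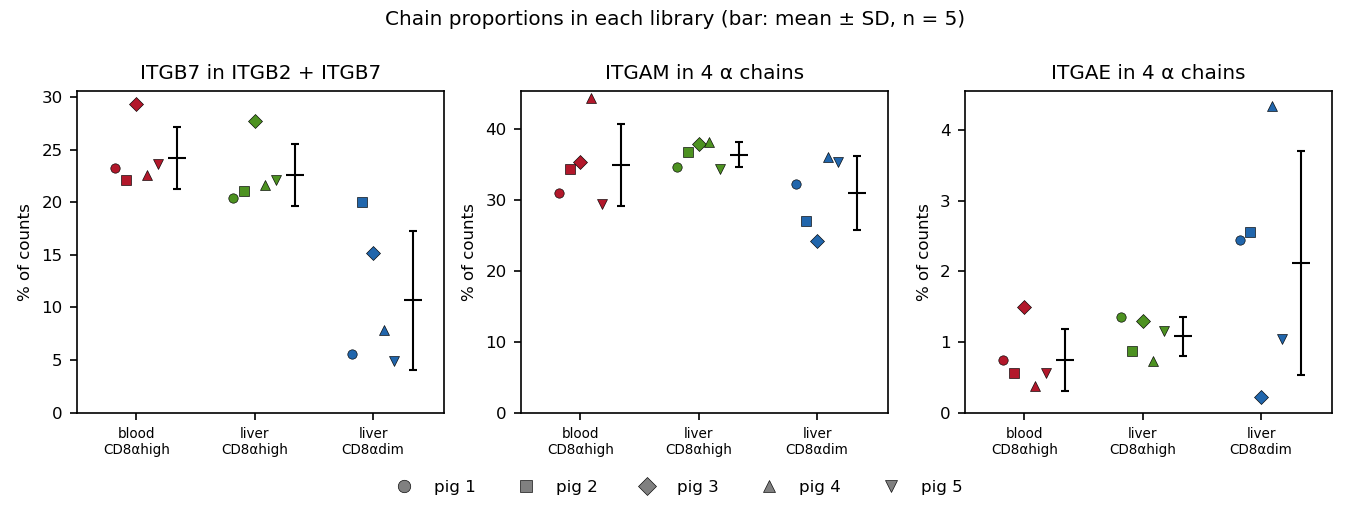
Share of counts, in percent, taken by ITGB7 among ITGB2 and ITGB7 (left) and by ITGAM (middle) and ITGAE (right) among the α chains ITGAL, ITGAM, ITGAX and ITGAE. Each symbol is 1 library, its shape gives the pig, and bars give the mean ± SD of 5 pigs; the ITGB7 share is 4.90% to 19.98% in lrNK libraries and 20.4% to 29.3% in the others.

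Partners outside the 8 genes were read from a list of 3 chains. ITGA4, the other α chain of β7 and also a partner of β1, fell together with ITGB7: it was at 1479 to 1676 CPM in blood, 1321 to 1537 CPM in liver CD8αhigh and 514 to 1035 CPM in lrNK libraries, without overlap. Its log2 fold change in lrNK cells was -0.98 against blood (edgeR adjusted p = 7.78e-05) and -0.83 against liver CD8αhigh cells (adjusted p = 5.39e-04). ITGB1 did not pass, with 682 ± 181, 668 ± 172 and 938 ± 306 CPM in blood, liver CD8αhigh and lrNK cells (SD, n = 5), and a log2 fold change of 0.46 against blood (95% interval -0.02 to 0.94). ITGA4 counts outnumbered ITGAE counts by far in each population. The mean levels were 1567 against 9.75 CPM among blood cells and 792 against 13.5 CPM among lrNK cells. How much of ITGA4 pairs with β7 and how much with β1 was not tested.

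ITGAD, the remaining β2 α chain, was detected at 2 to 51 counts in lrNK, 6 to 20 in blood and 0 to 3 in liver CD8αhigh libraries. It was higher in lrNK than in liver CD8αhigh cells (edgeR adjusted p = 0.00459) but not against blood (adjusted p = 0.423), and no fold is given because the liver CD8αhigh libraries were at or under 3 counts. ITGAD, ITGAX and ITGAM lie next to each other on chromosome 3, with 8948 and 15330 bases between them, and ITGAL lies 545650 bases beyond ITGAM. ITGAM and ITGAL were thus lower in lrNK cells within a stretch where ITGAX did not pass the test. These 4 are related in sequence, and reads that fit more than one of them would be uncertain.

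Genes that activate integrins from inside the cell were read from a list as well. Of 15 inside-out activators 13 were tested, and 1 was higher, 5 were lower and 7 did not pass in lrNK against blood cells. Their median log2 fold change was -0.25. Of all tested genes 8.62% were higher and 9.6% lower in this comparison. RAP1B and RAP1A, both forms of the small GTPase RAP1 that recruits talin to the membrane, went opposite ways: RAP1B fell (log2 fold change -1.53, edgeR adjusted p = 6.58e-08, lower in 5 of 5 pigs) and RAP1A rose (0.88, adjusted p = 0.00341, higher in 4 of 5 pigs). RAP1A was at 786, 669, 301, 752 and 679 CPM in the lrNK libraries of pigs 1 to 5 and at 278 to 447 CPM in blood, so that pig 3 alone lay within the blood range.

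RASGRP2 (CalDAG-GEFI), an exchange factor that loads RAP1, fell from 121 to 221 CPM in blood to 4.87 to 64.3 CPM in lrNK libraries (log2 fold change -2.27, edgeR adjusted p = 1.92e-04). CYTH1 (cytohesin-1), which binds the β2 tail, fell from 151 ± 20.2 to 37.1 ± 26.2 CPM (SD, n = 5, log2 fold change -2.02, adjusted p = 8.83e-04). TLN2, the other talin, had 27 to 77 counts in blood and 0 to 4 counts in lrNK libraries (adjusted p = 1.70e-04). RAPGEF1, a further exchange factor for RAP1, was the remaining gene of the list to fall (log2 fold change -1.48, adjusted p = 5.44e-06), and it is named here after its value was seen.

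Genes that restrain RAP1 or integrins were read from a further list. Of 10 such brakes 9 were tested, and 2 were higher, 3 were lower and 4 did not pass in lrNK against blood cells. Their median log2 fold change was -0.42. Of all tested genes 8.62% were higher and 9.6% lower. The GTPase-activating proteins RASA3 (log2 fold change -3.53, edgeR adjusted p = 2.55e-09) and RAP1GAP2 (-2.85, adjusted p = 4.04e-07) fell, as did FLNA (-2.46, adjusted p = 3.74e-06), a filamin that competes with talin for β tails. SIPA1, another RAP1 GTPase-activating protein, rose from 35.3 ± 7.69 to 106 ± 25.9 CPM (SD, n = 5, log2 fold change 1.59, adjusted p = 1.64e-05). DOK1, an adaptor that binds integrin tails, rose as well (1.38, adjusted p = 3.18e-04). DOK1 overlaps M1AP, which had 69.3% to 124% of its count per library, and RASA3 overlaps LOC110255870, which had 84.4% to 100% of its count, so these reads cannot be assigned with certainty.

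Of 15 linkers between integrins and actin, 12 were tested, and 1 was higher, 3 were lower and 8 did not pass in lrNK against blood cells. Their median log2 fold change was -0.53. Of all tested genes 8.62% were higher and 9.6% lower. VCL (vinculin), which binds talin under tension, fell from 557 ± 76.3 CPM in blood to 47.3 ± 21.9 CPM in lrNK cells (SD, n = 5, log2 fold change -3.56, edgeR adjusted p = 4.27e-09). ZYX (zyxin, -1.38, adjusted p = 3.76e-06) and LIMS1 (PINCH-1, -1.04, adjusted p = 2.54e-04) fell too, and PXN (paxillin) rose (0.72, adjusted p = 0.0215, higher in 4 of 5 pigs). The 95% intervals of FLNA (-3.09 to -1.84) and VCL (-4.10 to -3.01) lay wholly below that of TLN1, which did not pass.

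**Figure D5:**
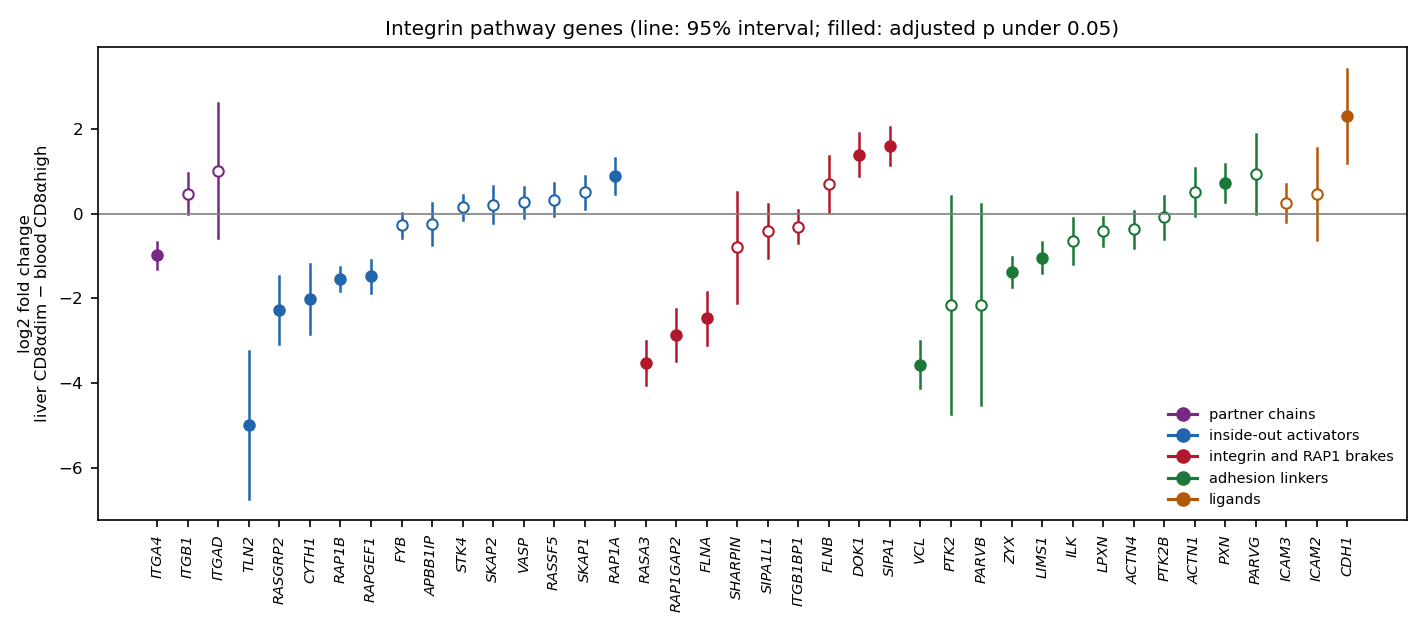
Log2 fold change of liver CD8αdim over blood CD8αhigh cells for the tested genes of 5 lists (colours), with 95% intervals as lines and filled points where the edgeR adjusted p was under 0.05. VCAM1 is left out because it was at 0 in all blood libraries. Among activators, brakes and linkers, filled points above 0 number 1, 2 and 1, and those below 0 number 5, 3 and 3.

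Of 9 integrin ligands 8 were in the table and 4 were tested, and 2 were higher in lrNK than in blood cells. Of all tested genes 8.62% were higher. The median log2 fold change of the 4 ligands was 1.38, the same with VCAM1 set to its bound. VCAM1 had 249, 139, 0, 93 and 48 counts in the lrNK libraries of pigs 1 to 5 and 0 counts in all blood libraries, which makes the lrNK mean at least 45.8-fold higher than a floor of 3 counts per blood library (edgeR adjusted p = 0.00428). Without the lrNK library of pig 1, an alternative chosen after seeing the data, that bound was 28.9-fold. CDH1 (E-cadherin), the ligand of CD103, was at 23.7, 37.4, 11.7, 78.4 and 41.3 CPM in lrNK and 0.54 to 14.1 CPM in blood libraries (log2 fold change 2.30, adjusted p = 0.00406). The ICAM genes that were tested did not pass, with log2 fold changes of 0.46 for ICAM2 (95% interval -0.61 to 1.53) and 0.24 for ICAM3 (-0.21 to 0.69). ICAM1, the main ligand of LFA-1, had too few counts for the filter and was not tested: it had 27, 10, 0, 97 and 22 counts in the lrNK libraries of pigs 1 to 5, 0 to 6 in blood and 0 to 1 in liver CD8αhigh libraries. MADCAM1 was also not tested, with 47 counts in the lrNK library of pig 3 and 0 in the other 14 libraries, and F11R and ICAM4 were at 0 in all 15. Beside these ligand levels, 7 hepatocyte markers summed to 0 CPM in blood and to 0 to 8.14 CPM in lrNK libraries. APOA1 and TTR were among the 5 at 0, and ALB had 14, 2, 0, 24 and 0 counts in the lrNK libraries of pigs 1 to 5. The sum of 5 endothelial markers was 0 to 12.5 CPM in blood and 2.44 to 18.5 CPM in lrNK libraries. CDH5, STAB2 and LYVE1 were at 0, and PECAM1 had 5 to 71 counts in lrNK and 0 to 46 in blood libraries. LYZ, the myeloid marker, had 16, 9, 0, 91 and 24 counts in the lrNK libraries of pigs 1 to 5. In CPM, LYZ and ICAM1 ranked these 5 libraries in the same order. The part of other cell types in the ligand counts was not tested.

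Against liver CD8αhigh cells the same named genes passed in the same direction, apart from VCAM1 (edgeR adjusted p = 0.0876). VCAM1 passed without the lrNK library of pig 3 (adjusted p = 0.0245) and in the fit blocked by pig (0.00191), and it had 53 counts in the liver CD8αhigh library of pig 1 and 0 in the other 4. By list, 1 partner chain was higher and 1 lower, and 2 activators were higher and 5 lower. Among the brakes 2 were higher and 3 lower, among the linkers 1 was higher and 3 lower, and 1 ligand was higher. Of all tested genes 6.96% were higher and 7.68% lower. SKAP1, an adaptor that links the T cell receptor to RAP1 and is named after its value was seen, was the activator added to RAP1A (log2 fold change 0.62, adjusted p = 0.0283). Between liver CD8αhigh and blood cells 0 genes of these lists were called by edgeR, and 0.064% of all tested genes were. Without the lrNK library of pig 3 every pathway gene named by rule stayed called in its direction against blood, and FLNA, at 464 CPM in that library and 103 to 167 CPM in the other lrNK libraries, had a log2 fold change of -3.01.

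The genes most like each member over the 15 libraries were found by the root mean square difference of centred log2 CPM. AFG3L2, a mitochondrial protease, was nearest to both LFA-1 chains, at 0.15 from ITGB2 and 0.16 from ITGAL, followed by DAPK2 (0.18) for ITGB2 and KCNAB2 (0.19) for ITGAL. ITGAM was nearest to TMEM164 (0.20) and TBC1D10C (0.24), and ITGB7 to ANXA2 and FLNA (0.37 each). TLN1 was nearest to ANKRD13A and TBC1D1 (0.14 each), and FERMT3 to the overlapping TRPT1 (0.019) and then to VCP (0.21). The scarce chains had no close match: the nearest genes were LOC110257855 (0.54) and ZNF529 (0.55) for ITGAX and GABARAPL2 (0.43) and KIF3C (0.45) for ITGAE.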

How the data were processed

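RNA of FACS-purified NK cells (blood CD8αhigh, liver CD8αhigh and liver CD8αdim) of 5 pigs was prepared with a 3′ mRNA kit. The authors trimmed the reads with QuasR and aligned them with Rhisat2 to Sscrofa11.1, the submitters' processing notes name HISAT2, and the deposited values are raw counts of reads per gene. Which program counted the reads, with what strand setting, and how it treated reads that align to several places is not given in the sources used here. All 15 columns matched a population and a pig by their labels, and 0 columns matched no sample. No pair of libraries agreed within sampling noise (chi-square per degree of freedom 9.82 to 51.3 over 30 pairs of one population).

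Tests used edgeR 4.0.16 under R 4.3.3 (TMM, default filter by population, quasi-likelihood test, Benjamini-Hochberg adjustment) in a single fit of 15 libraries. The labels give the pigs as separate individuals, so the p-values measure the spread between animals. CPM are counts scaled to the TMM-adjusted library total, and 95% intervals cover the fit's error. The labels also pair libraries by pig: deviations from the population means correlated at a mean of 0.107 over 15 pairs of one pig and -0.027 over 60 pairs of different pigs. Alternatives were DESeq2 1.42.0, its size factors in edgeR, no filter, a filter of 50 counts in 5 libraries, robust dispersion, the pig as a replicate block, a fit of 2 populations only, an adjusted p under 0.01, and leaving out each pig or library. Tests were checked on simulated counts.

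The 8 genes and all lists were chosen with earlier results of these data known. Named are all 8, up to 4 rises and 4 falls per pathway list in lrNK against blood cells, and the 2 nearest genes (prior count 2 for the log2 scale). FYB1 was read under its symbol FYB. Coordinates come from a RefSeq gene table of Sscrofa11.1 without strand. Sequences were not used here. Plots were made in matplotlib 3.10.9 under Python 3.11.15.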

Additional observations from a re-analysis of the deposited data

Results flagged for a closer look

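In 75 groups of 5 libraries, 1 per named gene and population, 5 held a library far from the other 4, and chance marks about 1 group in 20. For 3 of the 5 it was the lrNK library of pig 3: TLN1 stood at 626 CPM against 346 to 393 CPM in the other lrNK libraries, FLNA at 464 CPM against 103 to 167 CPM, and RAP1A at 301 CPM against 669 to 786 CPM. In the liver CD8αhigh cells, ITGB7 stood at 334 CPM in pig 3 against 236 to 242 CPM in the others. VCAM1 stood at 18.3 CPM in the liver CD8αhigh library of pig 1 and at 0 in the other 4.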

How the results depend on the processing

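The replicate block (pig as a term) changed no call of the 8 genes and, of the pathway genes named by rule, 1 call, that of VCAM1 against liver CD8αhigh cells. It gave -2.44 for ITGB7 against blood (log2 fold change, adjusted p = 4.22e-06) and 2120, 1716 and 8 calls over all genes, where the fit without it gave 1993, 1601 and 7, in the order of the comparisons described. DESeq2 gave 2388, 1960 and 22. Of 672 recomputed log2 fold changes, 624 kept their direction and side of the threshold, 20 lost a call and 28 changed sign, all 28 in values that were not called, 3 of them of ITGAM between the CD8αhigh populations. With the block, ITGAX against blood was 0.21 and ITGAE against liver CD8αhigh cells -0.023, and in DESeq2 with the block 0.22 and -0.018. Leaving out a pig or a library, ITGAX ranged from -0.36 to 0.31 against blood. In the same way, ITGAE ranged from -0.14 to 1.06 against blood and from -0.52 to 0.35 against liver CD8αhigh cells, and FERMT3 from -0.0098 to 0.34 against the latter. Between the CD8αhigh populations FERMT3 ranged from -0.071 to 0.14, ITGAM from -0.11 to 0.10 and TLN1 from -0.023 to 0.080. The number of the 8 genes called against liver CD8αhigh cells was 2 at an adjusted p under 0.01 and from 2 to 4 when a pig or library was left out. Against blood it was from 3 to 4. ITGAL also lost its call against liver CD8αhigh cells with the filter of 50 counts (adjusted p = 0.0517) and in a fit of 2 populations only (0.0735). ITGAX and ITGAE had the lowest levels of the 8 genes and wide intervals, and how far depth or the spread between pigs sets them was not tested.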
